A study of Mus musculus with 6 samples.

Results

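The C/EBP (CCAAT/enhancer-binding protein) family of transcription factors was examined in osteoblasts treated with corticosterone. Its members were chosen by gene name, with earlier results of these data known: *Cebpa*, *Cebpb*, *Cebpd*, *Cebpg* and *Cebpz*, which are 5 of the 24016 genes in the table. *Cebpe* was not analysed here, and *Ddit3*, whose product CHOP is also counted in the family (as C/EBPζ), is described among the dimer partners. The libraries came from MC3T3-E1 subclone 4, a mouse preosteoblast line of wild-type genotype that forms mineralizing osteoblasts in culture. They were differentiated for 6 days with β-glycerophosphate (10 mM) and ascorbic acid (50 μg/ml). For the next 24 h, 3 cultures received vehicle and 3 received corticosterone, the principal rodent glucocorticoid, at 100 nM. The labels state that calcitriol (10 nM), the active form of vitamin D, was present during the treatment, without saying whether this held for the vehicle cultures too. All 6 libraries come from 1 clonal line, and the labels give passages 4 to 10 in the growth protocol but 6 to 12 as the batch, so differences between passages cannot be assigned to a library.

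C/EBP proteins bind DNA as dimers through a basic leucine zipper (bZIP), and their dimers with one another or with related bZIP proteins recognize different sites. C/EBPα and C/EBPβ activate liver acute-phase genes and, with C/EBPδ, drive adipocyte differentiation. In osteoblasts C/EBPβ cooperates with RUNX2 and ATF4 at the osteocalcin gene. C/EBPγ lacks a classical activation domain and pairs with other members or with ATF4. The product of *Cebpz* has no bZIP. It is the homolog of the yeast ribosome assembly factor Noc1 and shares its name, but not this domain, with the rest.

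The 250 bases before the start of *Cebpa* and *Cebpb* are shown because these were the members that changed with treatment. They come from RefSeq promoters of GRCm38.p6, in which 3 of the 5 members (*Cebpa*, *Cebpb* and *Cebpg*) were matched by symbol. *Cebpa* is at chr7:35119043-35119292 on the plus strand and *Cebpb* at chr2:167688665-167688914 on the plus strand. Capitals mark TATAAA, the TATA box, in *Cebpa* and TGACG, the half-site of the cAMP response element, in *Cebpb*, where CGTCA is the same half-site on the minus strand.
Cebpa: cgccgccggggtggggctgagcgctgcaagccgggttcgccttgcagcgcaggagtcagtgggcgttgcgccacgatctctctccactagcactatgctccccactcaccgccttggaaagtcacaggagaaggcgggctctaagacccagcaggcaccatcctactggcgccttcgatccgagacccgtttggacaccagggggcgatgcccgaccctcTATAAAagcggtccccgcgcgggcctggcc
Cebpb: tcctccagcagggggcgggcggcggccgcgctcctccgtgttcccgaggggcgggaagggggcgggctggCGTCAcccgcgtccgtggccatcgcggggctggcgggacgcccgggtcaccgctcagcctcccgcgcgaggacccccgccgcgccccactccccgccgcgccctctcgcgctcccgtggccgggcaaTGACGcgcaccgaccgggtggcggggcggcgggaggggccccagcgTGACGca

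The TATA box of *Cebpa* begins 30 bases before the start, and 12.4% of the 32851 promoters in the same table hold TATAAA on either strand. In *Cebpb* the half-sites begin 180, 53 and 7 bases before the start, and 17.8% of promoters hold at least 1. *Cebpg* held 2 CCAAT boxes, 89 and 28 bases before its start on the minus strand, a motif found in 33.8% of promoters. Both strands were searched, and TGACG also occurs inside the full element TGACGTCA. None of the 3 windows held the glucocorticoid receptor half-site AGAACA (16.1% of promoters), the C/EBP core TTGCGNAA (0.67%) or TGACGTCA (1.55%). The windows were rich in G and C, at 66.4% for *Cebpa* and 81.6% for *Cebpb*, against a median of 52.4% over all promoters. A match to these letters describes the sequence only.

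The libraries held 16020401 to 25638645 reads assigned to genes, and the deposited values are these reads divided by a size factor of 0.782 to 1.30 for each library (normalized counts). All 6 glucocorticoid response genes examined (*Tsc22d3*, *Fkbp5*, *Per1*, *Sgk1*, *Klf9* and *Zbtb16*) rose in the libraries labelled corticosterone. *Zbtb16* had no read with vehicle and at most 7 reads in a library. Of 6 reference genes none rose and 1 fell, *Hprt*, from 1203.2 ± 15.8 to 1055.3 ± 43.4 (limma adjusted p = 0.019). *Gapdh* was uneven within treatments, at 1075.9 ± 1474.1 with vehicle and 407 ± 233 with corticosterone. All 12 osteoblast markers were present, with a summed level of 1486774.6 to 1537987 with vehicle and 1288105.8 to 1346988.6 with corticosterone. Of these markers 8 fell while 1 rose. Of the macrophage and myeloid markers 5 of 10 were in the table, summing to 264 to 302 against 215 to 247. Chondrocyte markers (4 of 6) summed to 3491.7 to 3906.8 against 2889.7 to 2934.7, and adipocyte markers (2 of 8) to 15.5 to 37.8 against 3.31 to 10.2. Skeletal muscle markers (4 of 6) summed to 30.9 to 37.2 against 39.8 to 42.8 and endothelial markers (4 of 6) to 22.8 to 47.8 against 39.8 to 53.7. Single genes made up most of some of these sums. *Car3* had 28.6 ± 11.6 with vehicle and 5.09 ± 2.29 with corticosterone, while the other adipocyte marker, *Plin1*, had 0 and 0.853 ± 1.48. *Lyz2* had 229 ± 12.2 and 178 ± 15.4 among myeloid markers, and *Vwf* 28.3 ± 7.9 and 39.4 ± 1.71 among endothelial markers. Such a sum describes that gene more than a cell type. The part of these lists in the results on C/EBP genes was not tested. In bulk RNA, fewer cells of a type and less RNA per cell cannot be told apart.

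Corticosterone treatment raised *Cebpb* and lowered *Cebpa*, while *Cebpd*, *Cebpg* and *Cebpz* did not pass the test. A gene is said to have risen or fallen where its adjusted p was under 0.05 in limma, fitted and adjusted over all 24016 genes. That was 2 of 5 members, 1 in each direction, against 16.7% of all genes, of which 8.49% were higher and 8.2% lower. No member passed the threshold of the study, which also asks for an absolute log2 fold change over 1 and was passed by 2.78% of genes. The 2 treatment groups did not overlap in 3 of the 5 members (*Cebpa*, *Cebpb* and *Cebpz*), against 29.6% of all genes. These shares cover all 24016 genes, of which 11480 had a mean of at least 50, as every member did. The median SE over all genes was 0.29, against 0.06 to 0.12 for the members. Shares among genes measured as well as the members were not computed, so no excess is read from these counts. With 3 libraries a side, the smallest p of a two-sided exact permutation test is 0.1.

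*Cebpb* (ENSMUSG00000056501) is a single-exon gene of 1504 bp on chromosome 2, 167688915 to 167690418 of GRCm38, plus strand, and encodes C/EBPβ, the osteoblast partner of RUNX2 and ATF4. Its normalized counts were 2936.2, 3484.8 and 3089.6 with vehicle and 4361.8, 4624.4 and 4412.3 with corticosterone. Every treated library was above every vehicle library, and the treated libraries varied less. The mean went from 3170.2 ± 283 to 4466.2 ± 139 (SD, n = 3 each), a rise of 1.41-fold with a 95% interval of 1.3 to 1.53. On the log2 scale this was 0.50 (SE 0.06, limma adjusted p = 5.1e-06). The call held when any 1 library was left out, with values of 0.44 to 0.57.

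*Cebpa* (ENSMUSG00000034957) is also a single-exon gene, 2636 bp on chromosome 7, 35119293 to 35121928, plus strand. It encodes C/EBPα, a factor of adipocyte, liver and myeloid differentiation that also halts cell division. Vehicle libraries had normalized counts of 281, 395 and 302, and corticosterone libraries had 198, 212 and 188. The groups did not overlap, although vehicle library 2 stood well above the other 2. The mean fell from 326 ± 60.9 to 199 ± 12.1 (SD, n = 3 each), to 0.618 of the vehicle level. The log2 fold change was -0.69 (SE 0.12, 95% interval -0.94 to -0.45, limma adjusted p = 0.00036). The call was kept in 2 of the 6 fits that leave out a library, with an adjusted p of 0.029 without vehicle library 1 and 0.018 without vehicle library 2. It was lost in the other 4, at 0.056 without vehicle library 3 and 0.07, 0.057 and 0.063 without corticosterone libraries 1, 2 and 3. The log2 fold change stayed between -0.79 and -0.55 in all 6. Without a trend in limma's prior variance the adjusted p was 0.079.

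*Cebpd* (ENSMUSG00000071637) spans 3746 bp in 1 exon on chromosome 16, 15887286 to 15891031, plus strand, and encodes C/EBPδ, an early factor of adipogenesis and inflammation. Its normalized counts were 1604.7, 1823.8 and 1529.8 with vehicle and 1623.1, 1806.9 and 1745 with corticosterone. The groups overlapped throughout their range. The log2 fold change was 0.06 with a 95% interval of -0.07 to 0.20 (limma adjusted p = 0.61), so a change of any size within that interval is compatible with the data.

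*Cebpg* (ENSMUSG00000056216) has 2 exons and 5621 bp of exon on chromosome 7, 35046422 to 35056573, minus strand, 62719 bases from *Cebpa*. Its counts were 672, 562 and 692 with vehicle and 556, 610 and 523 with corticosterone. Vehicle library 2 fell within the range of the treated libraries. The log2 fold change was -0.19 (SE 0.08, 95% interval -0.36 to -0.01), and the adjusted p of limma was 0.16 (exact permutation p = 0.2). *Pepd*, the gene on its other side, had 539 ± 42.1 with vehicle and 486 ± 17.6 with corticosterone (limma adjusted p = 0.21).

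*Cebpz* (ENSMUSG00000024081) has 16 exons and 4658 bp of exon on chromosome 17, 78919006 to 78937066, minus strand. It had normalized counts of 1273.9, 1184 and 1347.8 with vehicle and 1350.1, 1427 and 1376.5 with corticosterone. The lowest treated library lay just above the highest vehicle library. The log2 fold change was 0.13 (SE 0.06, 95% interval 0.01 to 0.25, limma adjusted p = 0.15, exact permutation p = 0.1). *Ndufaf7*, whose gene starts 70 bases away and whose product assembles mitochondrial complex I, had 653 ± 23.1 and 610.5 ± 1.65 (limma adjusted p = 0.36).

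**Figure D1:**
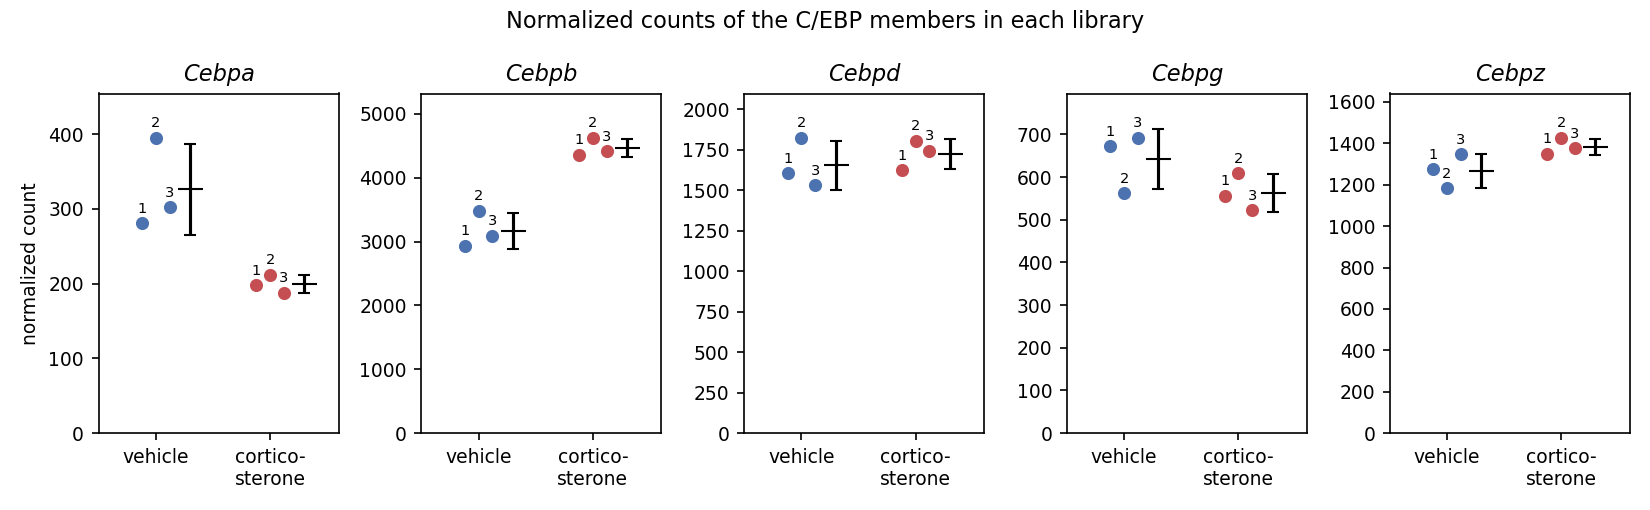
Normalized count (y axis, from 0, a separate scale for each gene) of the 5 C/EBP members in the 3 vehicle (blue) and 3 corticosterone (red) libraries, with the replicate number above each point and the mean ± SD in black. All corticosterone libraries lie above all vehicle libraries for *Cebpb* and *Cebpz* and below them for *Cebpa*, while *Cebpd* and *Cebpg* overlap.

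Vehicle library 2 was the highest vehicle library for *Cebpa*, *Cebpb* and *Cebpd*, by 0.29, 0.14 and 0.15 in log2 units above the vehicle mean, and the lowest for *Cebpg* and *Cebpz*, at -0.19 and -0.10. The first 3 have exons of 62.6%, 67.2% and 51.6% G and C, and the last 2 of 43.3% and 43.4%. Over the 462 genes with 60% or more G and C the median deviation of that library was 0.04, and over the 3020 genes under 45% it was -0.02, so *Cebpa*, *Cebpb*, *Cebpg* and *Cebpz* lay further out in the same directions. After a loess correction for GC content and length, the log2 fold change was -0.66 for *Cebpa* and 0.57 for *Cebpb*, both still past the test.

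**Figure D2:**
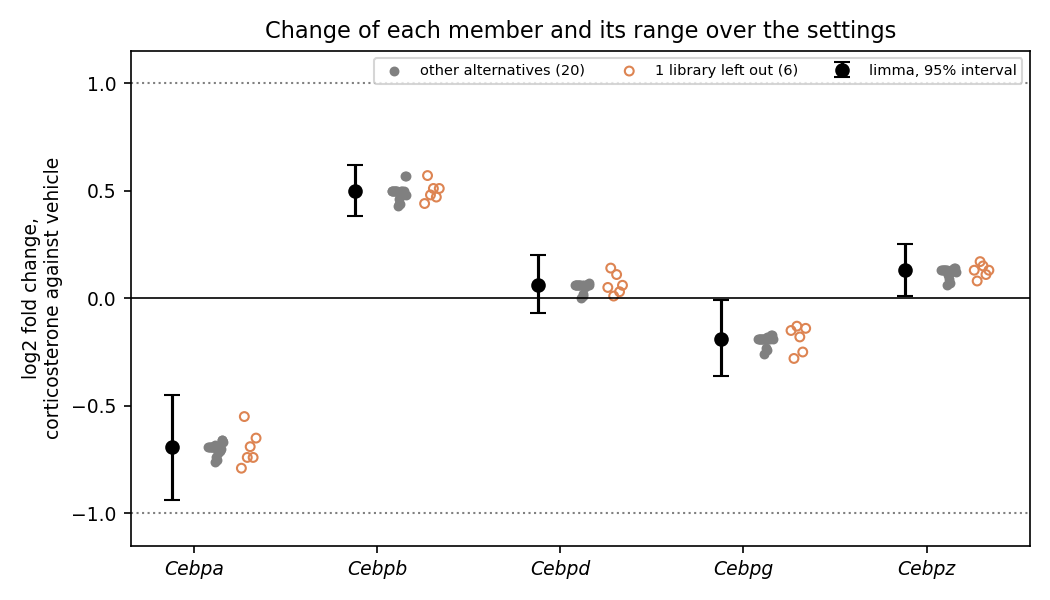
Log2 fold change of corticosterone against vehicle (y axis) for each member, with the limma value and its 95% interval in black, 20 other ways of processing the values in grey and the 6 fits that leave out 1 library as open circles. Dotted lines mark the log2 fold change of 1 in either direction, which no member reached, and the values of *Cebpa* (-0.79 to -0.55) and *Cebpb* (0.43 to 0.57) stay apart from 0.

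Exons of other genes overlap all 5 members, and whether reads were counted by strand is not given in the sources used here. *Cebpb* shares 312 bp of exon, 20.7% of its length, with *Tmem189* on the opposite strand, which had 702 ± 12.4 normalized counts with vehicle and 639.6 ± 36.6 with corticosterone (log2 fold change -0.13, limma adjusted p = 0.18). *Cebpd* shares 562 bp (15.0%) with *Spidr*, at 506 ± 34.8 and 513 ± 38.6. The overlaps of *Cebpz* with *Cebpzos* (171 bp, 3.67%) and of *Cebpa* with *Gm45091* (51 bp, 1.93%) are short, and so is that of *Cebpg* with *Gm44836* (73 bp, 1.30%). *Gm45091* had only 17.1 ± 4.37 and 5.86 ± 3.99 normalized counts. Of all stretches of 31 bases in their transcripts, 19.6% in *Cebpb* and 14.2% in *Cebpd* also occur in another gene, against 0.835% in *Cebpa*, 1.44% in *Cebpg* and 4.6% in *Cebpz*. In *Cebpb* and *Cebpd* these were 289 and 533 stretches, close in number to the 312 and 562 bp of exon overlap. Whether they are the same bases was not tested, so they are not a second, separate overlap. How reads from shared stretches were assigned is not given in the sources used here.

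Compared per kilobase of exon, *Cebpb* was by far the most abundant member in both groups. Its level was 2107.8 ± 188 normalized counts per kilobase with vehicle and 2969.5 ± 92.7 with corticosterone, above 98.5% and 99.0% of all genes. *Cebpd* followed at 441 ± 40.8 and 460.5 ± 25 and *Cebpz* at 272 ± 17.6 and 297 ± 8.39. *Cebpa* and *Cebpg* were lowest and lay within each other's spread with vehicle, at 124 ± 23.1 and 114 ± 12.5 per kilobase. With corticosterone they were 75.6 ± 4.57 and 100.1 ± 7.77 per kilobase, so the treated means differed by more than their spread and in the opposite order. That change of order depends on the exon length taken for each gene. Undivided by length, *Cebpg* was the higher in both groups, at 642 against 326 with vehicle and 563 against 199 with corticosterone.

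Taking *Cebpa*, *Cebpb*, *Cebpd* and *Cebpg*, which can pair with one another, as a pool per kilobase, the pool became larger and more dominated by *Cebpb*. The sum went from 2786.9 ± 236 to 3605.8 ± 125 per kilobase (SD, n = 3 each), a ratio of 1.29 with no overlap (exact permutation p = 0.1, the smallest possible). *Cebpb* alone went from 2107.8 to 2969.5 per kilobase, so the larger pool is not a result separate from the rise of *Cebpb*. The share of *Cebpb* was 74.9%, 75.9% and 76.1% with vehicle and 82.7%, 82.1% and 82.3% with corticosterone, a gain of 6.75 percentage points. *Cebpa* made up 4.08%, 4.91% and 4.24% with vehicle and 2.14%, 2.15% and 2.00% with corticosterone, a difference of -2.31 points. *Cebpd* went from a mean share of 15.8% ± 0.662 to 12.8% ± 0.371 and *Cebpg* from 4.14% ± 0.751 to 2.78% ± 0.147 (SD, n = 3 each). None of the 4 shares overlapped between treatments (exact permutation p = 0.1 each, 0.1 after adjustment over the 4 shares), which is the limit of this design. Shares sum to 100%, so a rise in 1 member lowers the others, and they count RNA, not protein or dimers. Left undivided by length, the gain of *Cebpb* was 9.54 points.

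**Figure D3:**
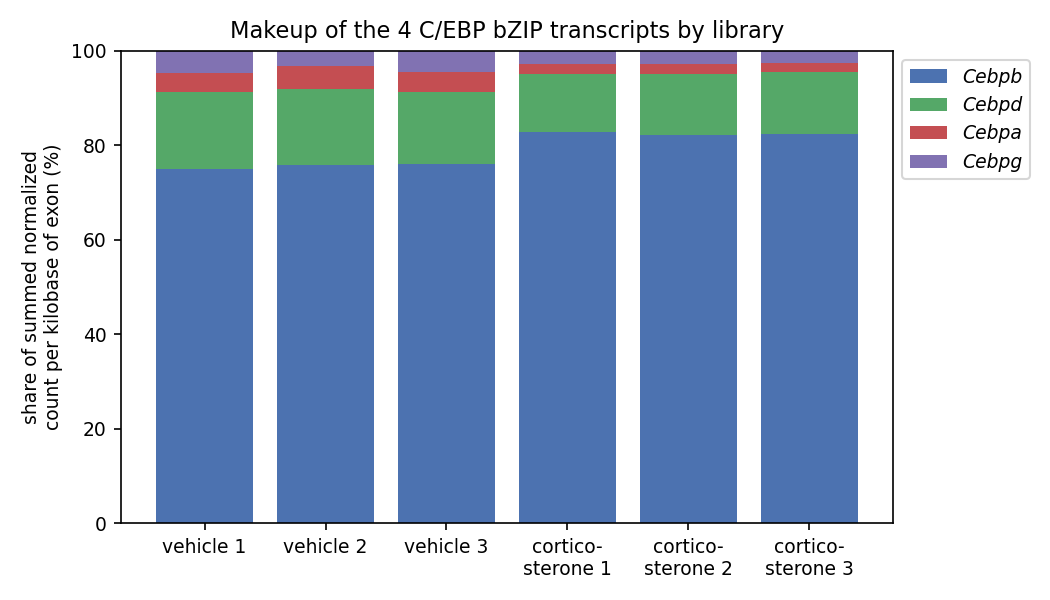
Stacked bars of each library's share (y axis, percent) of the summed normalized count per kilobase of exon of *Cebpb*, *Cebpd*, *Cebpa* and *Cebpg*. *Cebpb* fills 74.9% to 76.1% of the vehicle bars and 82.1% to 82.7% of the corticosterone bars, and the *Cebpa* band narrows from 4.41% to 2.10% on average.

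Whether members differed from one another in their response was tested on the log2 ratio of their normalized counts within each library, for all 10 pairs. In 8 pairs the ratios did not overlap between treatments (exact permutation p = 0.1, 0.125 after adjustment over the 10 pairs). No pair was under 0.05, which 3 libraries a side cannot reach in this test. Of single genes 29.6% did not overlap, and the share over other gene pairs was not computed. All but the pair of *Cebpg* and *Cebpz* hold *Cebpa* or *Cebpb*, the called members, so the pairs are not separate results. The largest difference was between *Cebpa* and *Cebpb*, whose log2 ratio went from -3.29 ± 0.13 to -4.49 ± 0.06 (SD, n = 3 each), a change of -1.19. *Cebpa* also lost ground to *Cebpz* (-0.82), to *Cebpd* (-0.76) and to its neighbour *Cebpg* (-0.51, but -0.27 without vehicle library 2). *Cebpb* gained on *Cebpg* (0.68), *Cebpd* (0.43) and *Cebpz* (0.37), and the ratio of *Cebpg* to *Cebpz* changed by -0.31. The ratios of *Cebpd* to *Cebpg* (0.25, exact permutation p = 0.3) and of *Cebpd* to *Cebpz* (-0.06, exact permutation p = 0.9) overlapped. Without vehicle library 2 they were 0.42 and 0.06, and without vehicle library 3 the ratio of *Cebpd* to *Cebpg* was 0.14.

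Of 9 bZIP partners that can pair with C/EBP proteins, 3 rose and none fell. Beside the counts of this and each later list, 8.49% of all genes were higher and 8.2% lower. Those shares cover all 24016 genes, of which 11480 had a mean of at least 50. They are thus not a like comparison for genes with more reads. *Nfil3*, a repressor of clock-controlled and immune genes, rose from 540.4 ± 44.3 to 896 ± 10.3 (log2 fold change 0.73, limma adjusted p = 6e-07). *Atf4*, the osteoblast and amino acid stress factor, rose from 2785.6 ± 168 to 3409.2 ± 90.5 (0.29, limma adjusted p = 0.00036), though its adjusted p was 0.054 without corticosterone library 2, where only *Nfil3* of the 9 was still called. *Jun*, an AP-1 subunit, rose from 2977.7 ± 184 to 3505.6 ± 149.8 (0.24, limma adjusted p = 0.0032) and passed in 1 of the 6 fits that leave out a library, the one without vehicle library 2. *Ddit3*, which encodes the C/EBP inhibitor CHOP, had 431 ± 18.5 and 419.6 ± 29.7, and *Fos* 197 ± 35.6 and 149.8 ± 30.4 (limma adjusted p = 0.8 and 0.09). In 6 of the 20 other ways of processing *Fos* was called as lower, with log2 fold changes of -0.47 to -0.33 over the 20. Over the 9 partners the median log2 fold change was -0.03, and over all genes it was -0.01.

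Among 20 genes whose products control the amount or activity of C/EBP proteins, 4 rose and 3 fell, with a median log2 fold change of 0.01. *Trib1*, an adaptor that directs C/EBPα to COP1 for degradation, rose from 225 ± 26 to 353 ± 14.5 (0.66, limma adjusted p = 8.9e-05). Its relative *Trib2*, with the same known activity, fell from 2205.7 ± 109.8 to 1689.4 ± 118 (-0.39, limma adjusted p = 9.6e-05).  *Ep300*, which encodes the coactivator p300 that C/EBPβ recruits, rose from 1873 ± 18.9 to 2641 ± 60.3 (0.50, limma adjusted p = 3.7e-07). *Id2*, an inhibitor of basic helix-loop-helix factors that supports adipogenesis, rose from 229 ± 40.7 to 510 ± 31.5 (1.17, limma adjusted p = 7.4e-07). These 4 passed in every fit that left out a library. *Nolc1*, a nucleolar C/EBPβ partner, had a log2 fold change of 0.23 (limma adjusted p = 0.011), with 0.076 to 0.22 when 1 library was left out. *Gsk3b*, whose kinase phosphorylates C/EBPα and C/EBPβ, had -0.19 (limma adjusted p = 0.014) and 0.013 to 0.062. Only 4 of the 20 were called without vehicle library 3, corticosterone library 1 or corticosterone library 2.

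The acute-phase and inflammatory genes known as C/EBP targets moved in both directions, with 7 of 15 higher and 2 lower. *Hp*, the haemoglobin scavenger haptoglobin, rose from 72 ± 9.73 to 1334.7 ± 144 (log2 fold change 4.21, limma adjusted p = 1.3e-13). *Lcn2*, the siderophore-binding protein lipocalin 2, had no read in any vehicle library and 21 ± 2.57 normalized counts with corticosterone, at least 8.04-fold higher against a floor of 3 reads per library. *C3*, the central complement component, rose from 21510 ± 576 to 28611.4 ± 1926.8 (0.41, limma adjusted p = 5.6e-06). *Ptx3*, a long pentraxin, rose from 1800.4 ± 65.3 to 2192.6 ± 61.9 (0.28, limma adjusted p = 0.00035). *Ccl2*, a monocyte chemokine, fell from 53.2 ± 15.3 to 12 ± 3.02 (-2.12, limma adjusted p = 0.00021). *Cp*, which encodes the copper oxidase ceruloplasmin, fell by 0.55 on the log2 scale (limma adjusted p = 0.00047), and its adjusted p was 0.06 without vehicle library 1 and 0.072, 0.051 and 0.064 without corticosterone libraries 1, 2 and 3. The other 3 that rose were the orosomucoids *Orm1*, *Orm2* and *Orm3*, of whose 31-base stretches 27.5%, 34.1% and 9.42% occur in another gene. Over the 15 genes the median was 0.28 on the log2 scale. The calls in this list were 7 without vehicle library 1 or any single corticosterone library, 10 without vehicle library 2 and 6 without the variance trend. The hepatocyte marker *Apoa1*, the only 1 of 6 in the table, summed to 13 to 18.5 with vehicle and 51.4 to 76.2 with corticosterone, and its part in these changes was not tested.

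Of 14 adipogenic targets and cofactors 7 were in the table, of which 2 rose and 2 fell, and the remaining 7, *Pparg* among them, were not analysed here. *Fabp4*, the fatty acid carrier that C/EBPα activates in adipocytes, rose from 14.8 ± 6.71 to 121 ± 11.5 (log2 fold change 3.14, limma adjusted p = 1.3e-06). *Egr2*, an early adipogenic factor upstream of *Cebpb*, fell from 634 ± 101 to 151 ± 21.6 (-2.07, limma adjusted p = 2.6e-09). *Scd1*, a fatty acid desaturase, had 0.20 (limma adjusted p = 0.016) and *Zfp423*, a preadipocyte factor, -0.23 (limma adjusted p = 0.035), and neither passed in any fit that left out a library, each of which left 2 calls. The median of the 7 was 0.20, or 0.08 with a gene at 0 reads in one group set to its bound.

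Skeletal genes known as C/EBP targets or partners were mostly lower, with 6 of 8 that fell, 1 that rose and a median log2 fold change of -1.18. *Runx2*, the master factor of osteoblasts and a partner of C/EBPβ, fell from 2338.7 ± 127 to 1049.2 ± 37.3 (-1.16, limma adjusted p = 1.6e-10). *Sp7*, the osteoblast factor osterix, fell from 665 ± 73.4 to 262 ± 24.8 (-1.34, limma adjusted p = 2e-08). *Bglap*, which encodes osteocalcin, fell from 232 ± 33.8 to 63.5 ± 11.4 (-1.87, limma adjusted p = 2e-07), although 62.9% of its 31-base stretches occur in another gene, so the assignment of part of its reads is uncertain. *Bglap2*, also counted among the 6, had -1.82 (limma adjusted p = 1.3e-07), with 95.2% of its stretches in another gene. The 2 may therefore not be separate counts. *Ibsp*, bone sialoprotein, fell by 1.20 (limma adjusted p = 9e-06), with 0.064 without vehicle library 2, 0.051 without vehicle library 3 and 0.054 without corticosterone library 2. *Igf1*, an anabolic growth factor under C/EBPδ control in osteoblasts, had -0.19 (limma adjusted p = 0.016) and passed in 1 of the 6 fits without a library, the one without vehicle library 2. *Col10a1*, the collagen of hypertrophic chondrocytes, had 0.73 (limma adjusted p = 0.0073) and likewise passed in only that fit. *Mmp13*, a collagenase, had 0.13 (limma adjusted p = 0.33). Without vehicle library 3 or corticosterone library 2, 4 of the 8 were called. Several of these genes are also osteoblast markers, so the list is not separate from the fall in that marker list.

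**Figure D4:**
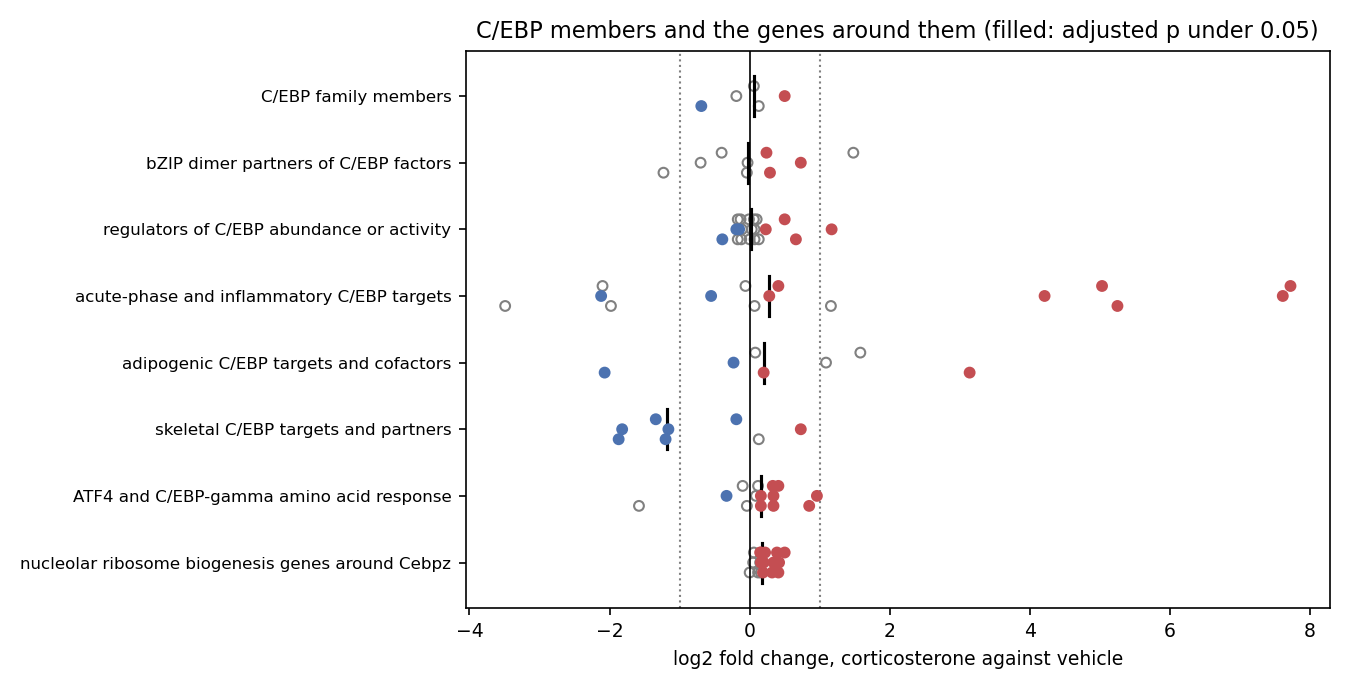
Log2 fold change (x axis) of each gene of the family and of 7 lists of related genes (y axis), filled red (higher) or blue (lower) where the limma adjusted p was under 0.05 and open where it was not, with a black bar at each median. Dotted lines mark a log2 fold change of 1 in either direction. The skeletal list has its median at -1.18 and the nucleolar list a narrow spread around 0.18. The point of a gene with no read in one group depends on the pseudocount of 0.1.

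C/EBPγ and ATF4 act together on amino acid and redox genes, and of 14 such genes 8 rose and 1 fell, with a median log2 fold change of 0.16. *Ddit4*, an mTORC1 inhibitor that is also a known glucocorticoid target, rose from 6321 ± 185 to 12283.4 ± 957 (0.96, limma adjusted p = 7.2e-10). *Gclc*, the catalytic subunit of glutathione synthesis, rose from 540.4 ± 87.7 to 966 ± 60 (0.85, limma adjusted p = 3.3e-06). *Slc3a2*, the heavy chain of amino acid transporters, rose from 3981.1 ± 87 to 5283.1 ± 132 (0.41, limma adjusted p = 1.4e-06), and *Shmt2*, of mitochondrial one-carbon metabolism, from 2152.3 ± 22.5 to 2717.9 ± 44.9 (0.34, limma adjusted p = 2.1e-05). *Asns*, asparagine synthetase, had 0.33 (limma adjusted p = 0.0015) and *Sesn2*, a sestrin, had -0.33 (limma adjusted p = 0.001). Both missed 0.05 without vehicle library 3 or any single corticosterone library, at 0.057 to 0.069 for *Asns* and 0.071 to 0.11 for *Sesn2*. Without vehicle library 3, corticosterone library 1 or corticosterone library 2, 5 of the 14 were called, and without corticosterone library 3, 6 were. *Phgdh*, among the 8 that rose (0.16, limma adjusted p = 0.02), has 56.3% of its 31-base stretches in another gene.

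Around *Cebpz*, 12 of 18 nucleolar genes of ribosome assembly rose and none fell, with a median log2 fold change of 0.18. Over all genes 8.49% were higher, but that share includes genes with few reads, while these 18 had vehicle means of 331 or more. The share among genes with like counts was not computed. *Cebpz* itself, at 0.13, did not pass. *Dkc1*, the pseudouridine synthase dyskerin, rose from 808 ± 93.8 to 1134.6 ± 19.5 (0.50, limma adjusted p = 9.7e-05), with 0.054 and 0.055 without corticosterone libraries 1 and 2. *Rrs1*, a factor of large subunit assembly, rose from 668 ± 25.5 to 892 ± 24.3 (0.42, limma adjusted p = 6.1e-05). *Nop56*, a core protein of box C/D particles, rose from 1814.8 ± 165 to 2405.8 ± 111 (0.41, limma adjusted p = 0.00013), with 0.06 without corticosterone library 1 and 0.05, not under the threshold, without corticosterone library 3. *Noc2l*, the homolog of the yeast partner of Noc1, had 0.19 (limma adjusted p = 0.031) and passed in 1 of the 6 fits without a library, the one without vehicle library 3. *Noc4l* had 0.15 (limma adjusted p = 0.13), and *Npm1*, nucleophosmin, had 9447.2 ± 797 and 9427.8 ± 241. Of the 31-base stretches, 15.8% in *Rrs1*, 22.4% in *Nop56*, 19.9% in *Noc2l* and 29.4% in *Npm1* occur in another gene. The share was 3.83% in *Dkc1* and 0.0382% in *Noc4l*, and 34.8% in *Pes1*, which is also among the 12 that rose. The count depended on scaling and on single libraries. It was 6 with upper-quartile scaling, which moved the median of all genes to -0.08, 7 with every library scaled to the same total, and 2 without a variance trend. Leaving out vehicle library 1, 2 or 3 left 7, 6 or 8 calls, and leaving out corticosterone library 1, 2 or 3 left 2, 3 or 4.

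The genes most like each member were sought by the root mean square difference of their centred log2 values over the 6 libraries, among 11464 genes with a mean of at least 50. *Cebpa* was nearest to *Smpd3*, a neutral sphingomyelinase needed for bone mineralization, at 0.033, followed by *Fcer1g* (0.057) and *Tmem131l* (0.061). *Smpd3* had a log2 fold change of -0.72 (limma adjusted p = 9.1e-05), with 0.055, 0.055 and 0.051 without vehicle library 3, corticosterone library 1 and corticosterone library 3. *Cebpb* was nearest to *Stard3*, a cholesterol transporter, at 0.023, followed by *Hdac7* (0.033) and *Pawr* (0.035). *Cebpd* was nearest to *Wwtr1*, *Snx8* and *Iffo1* (0.033, 0.034 and 0.035) and *Cebpg* to *Pax3*, *Ift88* and *Pask* (0.034, 0.037 and 0.045). *Cebpz* had the closest matches, *Nol6* (0.012), a nucleolar protein of ribosome assembly, *Washc4* (0.014) and *Nck2* (0.021). None of these matches of *Cebpz* passed the test (limma adjusted p = 0.14, 0.12 and 0.41). The distance is not scaled, so a member that varies little lies close to other genes that vary little. These distances describe the 6 libraries and combine differences between treatments with differences among libraries of the same treatment. *Cebpd* and *Cebpg* had log2 fold changes of 0.06 and -0.19. Their vehicle libraries alone deviated from the vehicle mean by -0.11 to 0.15 and by -0.19 to 0.11 in log2 units.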

How the data were processed

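Differentiated MC3T3-E1 cells were treated with vehicle or corticosterone (3 libraries each, called biological replicates in the study). The study sequenced RNA on an Illumina platform and tested with DESeq2. The submitters' processing notes name the build mm10, which is GRCm38. The aligner and counting program are not given in the sources used here. The authors deposited 1 table, named FPKM, but each value is a whole number of reads (within 0.01 read) divided by 1 size factor per library, so the deposited signal is a normalized count. The design had assumed FPKM and was kept as written. Median total reads were 24337786 (vehicle) and 18259063 (corticosterone), and the floor of 3 reads equals 2.32 to 3.84 normalized counts, which covers counting error only.

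Values were tested with limma 3.58.1 (variance trend, log2(value + 0.1), mean of at least 0.1, which removed no gene since the lowest mean was 0.257) in R 4.3.3, with Benjamini-Hochberg adjustment over all genes. Fold changes are on this log2(value + 0.1) scale. Ratios and shares were compared with two-sided exact permutation tests. Members, lists and alternatives were chosen with earlier results of these data known. Genes named are the members, genes of the fixed lists, the 3 most alike genes per member and chromosomal neighbours, while genes that overlap a member were added after their values were seen. Alternatives were other pseudocounts, filters, scalings, prior variances, a replicate block, edgeR 4.0.16 and DESeq2 1.42.0 on recovered reads, correction for GC content and length, thinning to the smallest library, and leaving out each library. The fits were tested on simulated data. Symbols, exons and GC content came from GENCODE release M21, matching 23983 of 24016 identifiers. Figures used matplotlib 3.10.9 in Python 3.11.15.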

Additional observations from a re-analysis of the deposited data

How the results depend on the processing

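*Cebpb* kept its direction and its call in all 20 alternatives and all 6 fits without a library, and *Cebpa* kept its direction in all of them. Without a trend in the prior variance *Cebpb* was the 1 member called and *Cebpa* missed (-0.69, limma adjusted p = 0.079), with 1633 genes at an adjusted p under 0.05 in place of 4010. The called genes were then 1 among bZIP partners, 3 among regulators, 6 among acute-phase, 2 among adipogenic, 4 among skeletal, 5 among amino acid response and 2 among nucleolar genes. Without the trend, limma adjusted p values were over 0.05 for *Atf4* (0.099), *Jun* (0.18), *Trib2* (0.071), *Nolc1* (0.26), *Gsk3b* (0.16), *Ptx3* (0.073), *Cp* (0.095), *Ibsp* (0.056), *Asns* (0.098), *Sesn2* (0.14), *Dkc1* (0.071), *Nop56* (0.087) *Smpd3* (0.069), *Scd1*, *Zfp423*, *Igf1*, *Col10a1* and *Noc2l*. With upper-quartile scaling the adjusted p of *Jun* was 0.069, that of *Nolc1* 0.061, of *Scd1* 0.12 and of *Noc2l* 0.24. On the recovered reads, whole for 100% of values, edgeR put 283 genes higher and 271 lower past the study's threshold and DESeq2 269 and 245, and both called *Cebpa* and *Cebpb*. Nucleolar calls were 6 with upper-quartile scaling, 7 with equal totals, 7 when scaled without the 10 genes with the most reads and 6 in DESeq2 with the block. Adipogenic calls were 2 after thinning. Over the 20 alternatives calls ranged from 1 to 4 (partners), 3 to 10 (regulators), 6 to 10 (acute-phase) and 2 to 4 (adipogenic). They ranged from 4 to 8 (skeletal), 5 to 9 (amino acid response) and 2 to 13 (nucleolar). DESeq2 with the replicate block put 437 genes past the study's threshold (239 higher and 198 lower), against 269 and 245 in DESeq2 without the block and 668 in limma. Without length, shares changed by -2.73 (*Cebpa*), 9.54 (*Cebpb*), -3.72 (*Cebpd*) and -3.09 points (*Cebpg*), and *Cebpb* gained 5.83 with *Cebpg* left out. The cause of these differences was not tested.

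With 1 library left out, 2362 to 3034 genes had an adjusted p under 0.05 (2624 without vehicle library 3, 2362 and 2580 without corticosterone libraries 1 and 3), 1 to 2 members were called and *Cebpa* was at -0.79 to -0.55. Calls ranged from 1 to 3 (partners), 4 to 5 (regulators), 7 to 10 (acute-phase), 2 to 2 (adipogenic), 4 to 6 (skeletal), 5 to 8 (amino acid response) and 2 to 8 (nucleolar). The ratio of *Cebpd* to *Cebpz* ranged from -0.16 to 0.06 and *Ddit3* from -0.09 to 0.02, the latter without corticosterone library 3.

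The labels do not say that replicate numbers pair the cultures. Deviations from the treatment mean, taken gene by gene over 11480 genes, correlated at only 0.037, 0.061 and 0.02 between same-numbered libraries. These values do not compare the expression levels themselves. With the replicate block in limma 2 members were called, as without it, and 297 genes were higher and 294 lower past the study's threshold, against 331 and 337. Counting error limits genes near the floor of 3 reads, while the members had 147 to 4515 reads per library.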
